A study of Mus musculus with 11 samples.

Results

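The 10 genes described here carry out presentation of peptides on MHC class I, and the table of gene expression in mouse liver holds 10 of 10 among its 23420 gene names. They were chosen by name for their known roles, though with earlier results of these data known. B2M, H2-K1, H2-D1 and H2-T23 encode class I chains, and TAP1, TAP2 and TAPBP move and load peptides. PSMB8 and PSMB9 are immunoproteasome subunits, and NLRC5 is a transcriptional activator of the class I genes. Gene symbols are written in capitals, as in the table. In nearly every nucleated cell, proteins are cut by the proteasome, and interferon exchanges its catalytic subunits for PSMB8 (LMP7) and PSMB9 (LMP2). The peptides pass into the endoplasmic reticulum through the transporter formed by TAP1 and TAP2, where tapasin (TAPBP) holds an empty heavy chain with β2-microglobulin (B2M) beside the transporter until a peptide binds. The loaded complex goes to the cell surface, where CD8 T cells read it, and hepatocytes, which have little class I in the resting liver, are known to raise it in response to interferon.

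RNA was sequenced from the livers of 11 GS WT male mice, which were 7 weeks old when injected. The 3 vector control livers, which the labels place at 0 weeks, were compared with 4 livers taken 2 weeks and 4 livers taken 3 weeks after c-Met, ΔN90-β-catenin and the SB10 transposase were delivered, here called oncogene-expressing livers. The study's methods name C57/Bl3 males for its tumor experiments in general, and its text elsewhere gives a 129/Ola and C57BL/6 mixed background for this model, while the labels name no strain. In SB-HTVI, plasmids are pushed into the liver by a large, fast injection into the tail vein, and the Sleeping Beauty transposase inserts the oncogenes into the genome of the hepatocytes that took them up. ΔN90-β-catenin lacks the N-terminal part through which β-catenin is degraded, and c-Met is a receptor tyrosine kinase.

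Several features of the model limit these comparisons. Only some hepatocytes receive the plasmids, so that a value is an average over cells with and without the oncogenes. The labels give the cell type as hepatocyte, but the source is whole liver, and markers of other cell types were measured in it, as given below. The mouse numbers in the labels fall into a series for the vector controls, another for 2-week replicates 1 and 2, and another for 2-week replicates 3 and 4 and the 3-week mice, so that series and oncogene expression cannot be told apart in any comparison with the controls. Values are RPKM, the reads of a gene scaled by its length in kilobases and by the sequencing depth. The totals inferred from the steps between low values were 17100000 to 27000000 reads per liver, at which 42.7% to 54.5% of the low values examined were whole reads within 0.05 reads. This puts 3 reads on 2000 bases of transcript at 0.0556 to 0.0877 RPKM. At this depth the lowest member, NLRC5, rests on about 231 to 482 reads per liver, and TAP1 on about 352 to 1291. These are estimates from RPKM, the inferred totals and annotated exon lengths, which can differ from the lengths the authors used.

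Tests used limma on log2(RPKM + 0.5) for the 11170 genes with a mean of at least 0.5 RPKM, which all 10 members passed, and p-values were adjusted over all these genes with the Benjamini-Hochberg method. A gene was called at an adjusted p under 0.05. Fold changes are on the log2(RPKM + 0.5) scale, which understates the change of low genes.

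The β-catenin targets GLUL and AXIN2 were read first as a check of the labels. GLUL was 246, 268 and 243 RPKM in vector control replicates 1 to 3, 476, 613, 889 and 788 RPKM in 2-week replicates 1 to 4 and 529, 1124, 595 and 724 RPKM in 3-week replicates 1 to 4. AXIN2 was 1.56, 1.28 and 1.24 RPKM in vector control replicates 1 to 3, 2.27, 2.92, 2.59 and 4.91 RPKM in 2-week replicates 1 to 4 and 3.34, 5.44, 3.52 and 5.16 RPKM in 3-week replicates 1 to 4. Both genes were higher in every oncogene-expressing liver than in any vector control, with log2 changes of 1.46 ± 0.22 SE for GLUL and 1.15 ± 0.20 SE for AXIN2 in limma. GLUL was called in all alternatives but that without control replicate 1 (adjusted p = 0.0507), and AXIN2 in all but those without control replicate 1, 2 or 3 (0.0623, 0.0683 and 0.0805). The hepatocyte list was high throughout, with ALB, its most abundant gene, at 32939 to 51000.3 RPKM.

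1 library stood apart from the others in the MHC region, so the log2 changes of members that were highest or lowest in it are also given without it. In vector control replicate 2, 7 of the 110 genes of chr17:33915899-37274484 that reached 0.5 RPKM in any mouse lay more than 1.5 times above or below all 10 other mice, after 0.5 RPKM was added to each value. That was 6.36% of the genes of the interval, and 0.216% of the 12032 genes elsewhere. In each of the 10 other livers, 0 to 2 genes of the interval did so. This measure was chosen after the values had been seen. H2-T10, a class Ib gene, was 4.17 RPKM in that liver and 0.176 to 0.638 RPKM in the others. H2-Q2 was 2.55 RPKM there and at most 0.485 RPKM elsewhere, and H2-BL was 2.01 RPKM against at most 1.02 RPKM. The others of the 7 were A930015D03RIK, GM8909, TCF19 and H2-EB1. H2-EB1, a class II gene, was 4.49 RPKM there and 7.51 to 38.7 RPKM in the other livers. H2-T22, which did not reach the margin of 1.5 times, was also lower, at 0.029 RPKM, where the other livers had 0.273 to 0.634 RPKM. H2-EA-PS, a class II pseudogene under 0.5 RPKM in all livers, was 0.26 RPKM in this liver and listed at 0 in the 10 others. Among the members, H2-D1 was highest and H2-K1, H2-T23, TAP1, TAPBP and NLRC5 were lowest in this liver. The MHC haplotype of the mice was not tested.

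**Figure D1:**
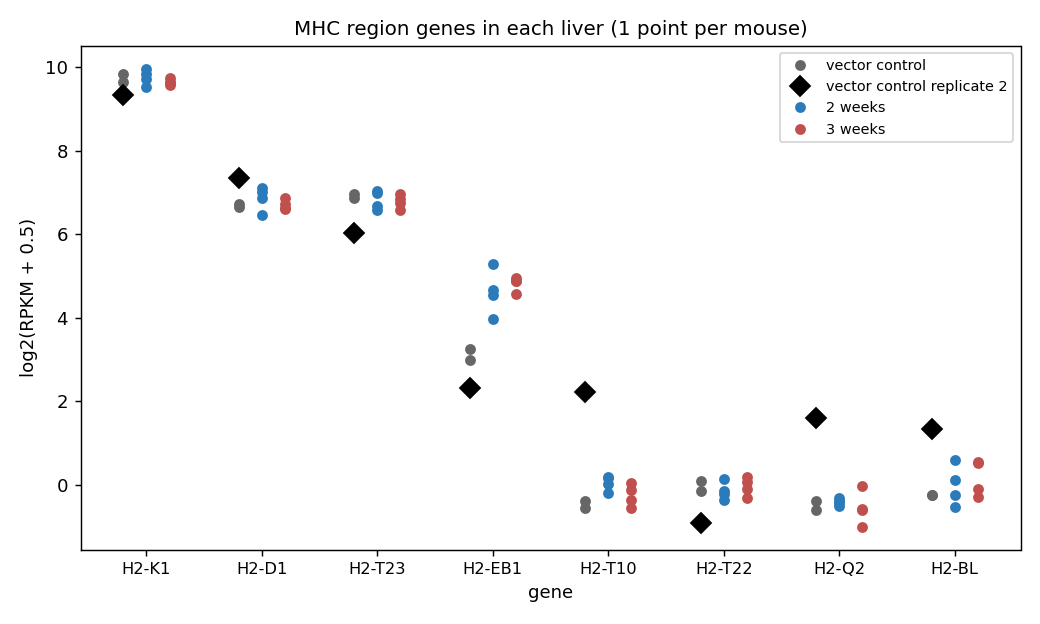
Level of 8 genes of the MHC region in each liver, as log2(RPKM + 0.5), with 1 point per mouse and the groups side by side. Vector control replicate 2 (black diamond) lies above all other livers for H2-D1, H2-T10, H2-Q2 and H2-BL and below them for H2-K1, H2-T23, H2-EB1 and H2-T22.

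The members differed widely in level per length, from a group mean of 1979 RPKM for B2M to 1.68 RPKM for NLRC5 in the vector controls. B2M was the highest in every liver, followed by H2-K1, and the ranges of these genes did not overlap in any group. H2-D1 and H2-T23 came next, and their ranges overlapped in each group, so that their order is not settled: H2-D1 was higher in 1 of 3 control, 3 of 4 2-week and 1 of 4 3-week livers. TAPBP and PSMB8 followed, also with overlapping ranges in each group, then PSMB9, whose range overlapped with that of PSMB8 at 2 and 3 weeks but not in the controls. TAP2, TAP1 and NLRC5 were the lowest. TAP2 exceeded TAP1 in all 11 livers, and their ranges were apart in the controls and at 2 weeks but overlapped at 3 weeks.

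The class I chains were at about the same level in the 3 groups, and none passed the test in any comparison. B2M was 1964, 1891 and 2082 RPKM in vector control replicates 1 to 3, 2413, 2399.7, 1960.0 and 1939 RPKM in 2-week replicates 1 to 4 and 2086, 2009, 1873 and 1916 RPKM in 3-week replicates 1 to 4. B2M, the light chain shared by all class I molecules, was highest in 2-week replicates 1 and 2, and the 3 groups overlapped. The log2 change of B2M was 0.063 ± 0.10 SE (95% confidence interval -0.14 to 0.27) in oncogene-expressing livers against vector controls. H2-K1 was 804, 652 and 911 RPKM in vector control replicates 1 to 3, 921, 1000.1, 847 and 744 RPKM in 2-week replicates 1 to 4 and 863, 793, 798 and 770.0 RPKM in 3-week replicates 1 to 4. H2-K1, a classical heavy chain that presents peptides to CD8 T cells, was lowest in vector control replicate 2 and highest in 2-week replicate 2, with overlapping groups. Its log2 change was 0.10 ± 0.11 SE (95% confidence interval -0.14 to 0.35), and it had the other sign, at -0.030, when vector control replicate 2 was left out. H2-D1 was 100.1, 163 and 105 RPKM in vector control replicates 1 to 3, 129, 137, 117 and 88.5 RPKM in 2-week replicates 1 to 4 and 116, 105, 97.8 and 98.9 RPKM in 3-week replicates 1 to 4. H2-D1, the other classical heavy chain among the members, was highest in vector control replicate 2, and the remaining livers lay between 88.5 and 137 RPKM. The log2 change of H2-D1 was -0.12 ± 0.16 SE (95% confidence interval -0.46 to 0.22), and without that control it also had the other sign, at 0.11. H2-T23 was 124, 64.9 and 117 RPKM in vector control replicates 1 to 3, 126, 131, 103 and 95.4 RPKM in 2-week replicates 1 to 4 and 125, 106, 95.2 and 115 RPKM in 3-week replicates 1 to 4. H2-T23 encodes Qa-1, a nonclassical chain recognised by inhibitory receptors of NK cells, and it was lowest in vector control replicate 2, with all other livers at 95.2 RPKM or more. The log2 change of H2-T23 was 0.18 ± 0.18 SE (95% confidence interval -0.20 to 0.57), and -0.11 without that liver.

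**Figure D2:**
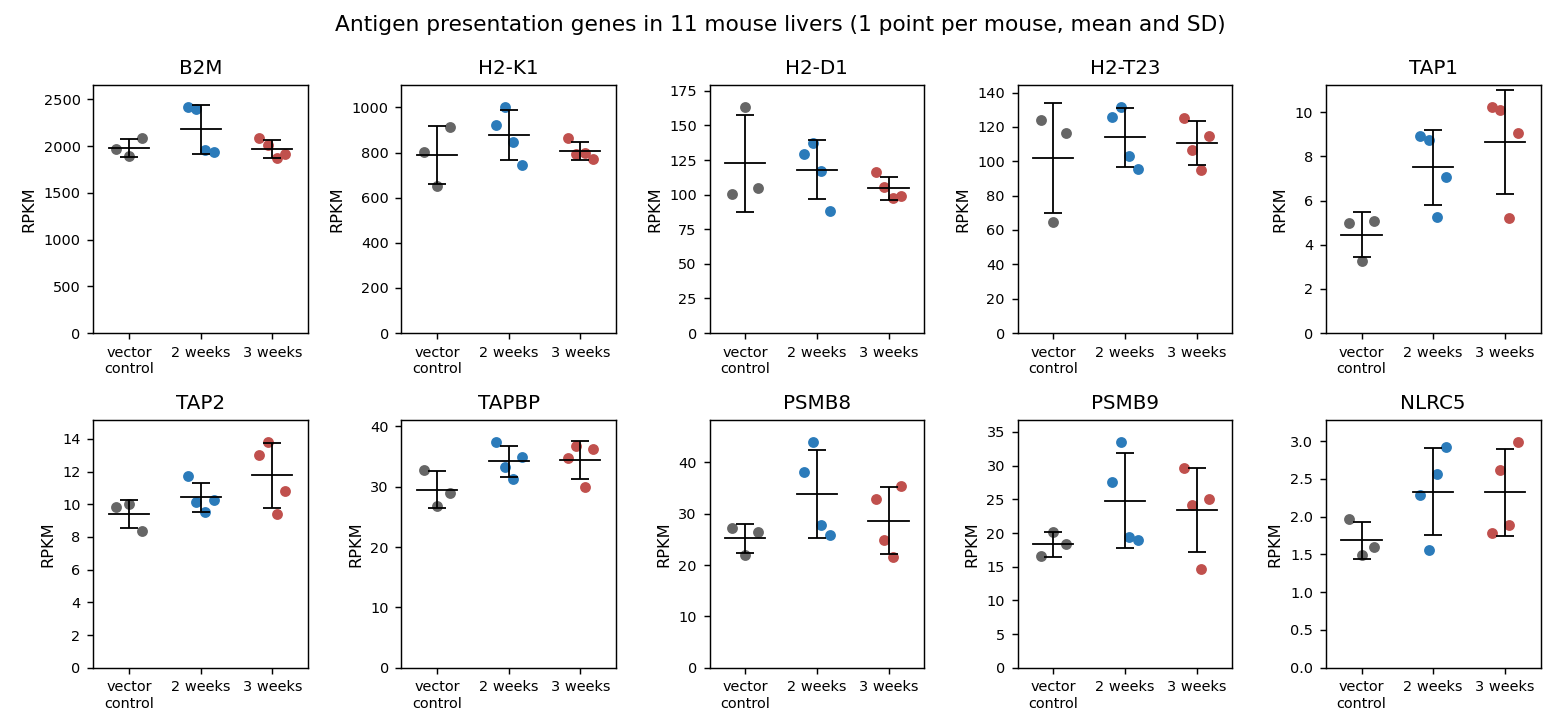
RPKM of the 10 members in vector control, 2-week and 3-week livers, with 1 point per mouse, the group mean (line) and the SD (bar), on axes that start at 0. The groups do not overlap with the controls for TAP1, where oncogene-expressing livers lie at 5.22 RPKM or above and controls at 5.08 RPKM or below.

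TAP1 was the member whose values separated the oncogene-expressing livers from the controls. Of all tested genes, 6.87% were likewise higher in all 8 oncogene-expressing livers than in all controls, and 31.4% in all 3-week livers. TAP1 was 4.99, 3.28 and 5.08 RPKM in vector control replicates 1 to 3, 8.92, 8.73, 5.27 and 7.08 RPKM in 2-week replicates 1 to 4 and 10.2, 10.08, 5.22 and 9.06 RPKM in 3-week replicates 1 to 4. Each of the 8 oncogene-expressing livers lay above each control, though 2-week replicate 3 and 3-week replicate 3, at 5.27 and 5.22 RPKM, were close to the highest control at 5.08 RPKM. The mean of TAP1 was 4.45 ± 1.01 RPKM (SD, n = 3) in vector controls, 7.50 ± 1.70 RPKM (SD, n = 4) in the 2-week livers and 8.64 ± 2.34 RPKM (SD, n = 4) in the 3-week livers. TAP1 rose at 3 weeks, by 1.82-fold with a log2 change of 0.86 ± 0.24 SE (95% confidence interval 0.34 to 1.39) and an adjusted p of 0.0470 in limma, and it was higher in 4 of 4 livers. It did not pass at 2 weeks (log2 change 0.69 ± 0.24 SE, adjusted p = 0.261) or over both times together (1.71-fold, log2 change 0.78 ± 0.21 SE, adjusted p = 0.0622). The call at 3 weeks was lost without vector control replicate 1, 2 or 3 (adjusted p = 0.105, 0.134 or 0.10) and without 3-week replicate 1, 2 or 4 (adjusted p = 0.0970, 0.0992 or 0.102). Leaving out 2-week replicate 2 or 4 also ended it, with an adjusted p of 0.0528 or 0.0525. Testing without the filter on low values (0.0813) ended it, as did leaving out vector control replicate 2 with 2-week replicates 1 and 2 (0.104). Median centring (0.221) and the replicate number as a block ended it too. The log2 change at 3 weeks was 0.68 without vector control replicate 2. TAP1 was called at 3 weeks in 7 of 19 alternatives. Over all of them, its adjusted p ranged from 0.0206 to 0.221 and its log2 change from 0.60 to 1.07. Over both times, the value passed without 2-week replicate 3 (adjusted p = 0.0371) or without 3-week replicate 3 (adjusted p = 0.0256), in a range of 0.0256 to 0.226.

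TAP2 and TAPBP, which act with TAP1 in transport and loading, did not pass, and their difference from TAP1 was not tested. TAP2 was 9.81, 10.01 and 8.39 RPKM in vector control replicates 1 to 3, 11.7, 10.2, 9.56 and 10.2 RPKM in 2-week replicates 1 to 4 and 13.0, 13.8, 9.41 and 10.8 RPKM in 3-week replicates 1 to 4. TAP2, the other chain of the transporter, was highest in 3-week replicates 1 and 2, and its groups overlapped. The log2 change of TAP2 at 3 weeks was 0.30 ± 0.14 SE (95% confidence interval 0.0034 to 0.59), with an adjusted p of 0.157 in limma. TAPBP was 32.8, 26.7 and 28.9 RPKM in vector control replicates 1 to 3, 37.4, 33.2, 31.3 and 35.0 RPKM in 2-week replicates 1 to 4 and 34.7, 36.7, 29.96 and 36.3 RPKM in 3-week replicates 1 to 4. TAPBP, the tapasin gene, lay between 29.96 and 37.4 RPKM in the 8 oncogene-expressing livers, and vector control replicate 1 lay among them at 32.8 RPKM. The log2 change of TAPBP over both times was 0.22 ± 0.093 SE (95% confidence interval 0.014 to 0.42), with an adjusted p of 0.185, and 0.15 without vector control replicate 2.

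The immunoproteasome subunits varied widely between livers of the 2-week group and between those of the 3-week group. PSMB8 was 27.2, 21.9 and 26.5 RPKM in vector control replicates 1 to 3, 38.1, 43.9, 27.8 and 25.9 RPKM in 2-week replicates 1 to 4 and 32.9, 24.9, 21.6 and 35.3 RPKM in 3-week replicates 1 to 4. PSMB8 was highest in 2-week replicates 1 and 2, while 3-week replicate 3 was the lowest of all 11 livers. PSMB9 was 16.5, 20.2 and 18.3 RPKM in vector control replicates 1 to 3, 27.5, 33.5, 19.3 and 18.9 RPKM in 2-week replicates 1 to 4 and 29.6, 24.2, 14.7 and 25.1 RPKM in 3-week replicates 1 to 4. PSMB9 was also highest in 2-week replicate 2 and lowest in 3-week replicate 3, with overlapping groups. The log2 change over both times was 0.28 ± 0.18 SE (95% confidence interval -0.11 to 0.67) for PSMB8. For PSMB9 it was 0.35 ± 0.21 SE (95% confidence interval -0.10 to 0.80), and neither gene passed the test. Each replaces a constitutive subunit, PSMB5 in the case of PSMB8 and PSMB6 in the case of PSMB9. The ratio of the RPKM of PSMB9 to that of PSMB6 was 0.163 ± 0.0154 (SD, n = 3) in vector controls, 0.200 ± 0.0353 (SD, n = 4) at 2 weeks and 0.193 ± 0.0426 (SD, n = 4) at 3 weeks. Every 2-week liver lay above every control in this ratio, narrowly (0.178 against 0.176), and the 3-week livers overlapped with both groups. The ratio of PSMB8 to PSMB5 was 1.11 ± 0.344 (SD, n = 3), 1.56 ± 0.200 (SD, n = 4) and 1.23 ± 0.357 (SD, n = 4) in the same groups, which all overlapped.

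NLRC5 was low in all livers. NLRC5 was 1.96, 1.497 and 1.59 RPKM in vector control replicates 1 to 3, 2.29, 1.55, 2.56 and 2.92 RPKM in 2-week replicates 1 to 4 and 1.78, 2.62, 1.89 and 2.98 RPKM in 3-week replicates 1 to 4. NLRC5 was highest in 3-week replicate 4 and 2-week replicate 4, and 2-week replicate 2 and 3-week replicates 1 and 3 lay within the range of the controls. Its log2 change over both times was 0.35 ± 0.18 SE (95% confidence interval -0.030 to 0.74), with an adjusted p of 0.240 in limma, and 0.29 without vector control replicate 2.

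Counted together, few members passed, and their shares were not compared with those of all genes by a test. Over both times, 0 of 10 members were called, where 4.18% of all tested genes were. The 467 such genes fell to 32, 48 or 58 without control replicate 1, 2 or 3, and to 95 with median centring. At an unadjusted p under 0.05, 2 of 10 members passed (TAP1 and TAPBP), beside 23.8% of all genes, and in 1 of 10, TAP1, all oncogene-expressing livers lay above all controls, beside 6.87% of all genes. At 2 weeks, 0 of 10 members were called, beside 0.286% of all genes. There, 1 of 10 passed at an unadjusted p under 0.05 (12% of all genes), and 1 of 10 did not overlap with the controls (9.51% of all genes). At 3 weeks, 1 of 10 members was called as higher, beside 8.11% of all genes. At that time 2 of 10 members, TAP1 and TAP2, passed at an unadjusted p under 0.05 (31.1% of all genes), and 1 of 10 did not overlap with the controls (31.4% of all genes). Both comparisons with the controls use the same 3 control livers. The shares of all genes given here are also those for the lists below.

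Between 3 weeks and 2 weeks, none of the members was called by limma, beside 0% of all genes, and 0 of 10 passed at an unadjusted p under 0.05, beside 12.6% of all genes. The log2 changes of the members from 2 to 3 weeks ran from -0.23 for PSMB8 to 0.18 for TAP1. The 95% confidence interval of TAP1 was -0.31 to 0.66, and every interval of the members held 0. 2-week replicates 1 and 2 set the sign of several of these values: without them, the log2 change from 2 to 3 weeks was 0.068 for PSMB8, 0.24 for PSMB9 and 0.15 for H2-T23, where it was -0.23, -0.086 and -0.039 with them.

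The level of the whole table moved with the groups, and the small changes of the members have to be read beside it. The median of log2(RPKM + 0.5) over the tested genes was 2.58 to 2.62 in the controls, 2.65 and 2.64 in 2-week replicates 1 and 2, and 2.78 to 2.95 in the 6 others. The median log2 change of all tested genes was accordingly 0.15 over both times, 0.086 at 2 weeks and 0.21 at 3 weeks, against a median of 0.22, 0.21 and 0.19 over the 10 members. With each library centred on its own median, the changes over both times became negative for B2M (-0.13), H2-K1 (-0.10) and H2-T23 (-0.012), and H2-D1 stayed negative at -0.31. TAP1 kept its sign, at 0.58 over both times and 0.60 at 3 weeks, but was not called at 3 weeks (adjusted p = 0.221). What moved the library medians was not tested.

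Some genes induced by interferon, many of which share inducers with class I genes, were called as higher, and the difference from the members was not tested. Over both times, 13 of 38 tested genes of this list of 44 were called as higher and 0 as lower, beside 3.96% of all genes called as higher. Their median log2 change was 0.49. CXCL9 was 3.17, 2.40 and 1.55 RPKM in vector control replicates 1 to 3, 15.2, 20.5, 14.1 and 13.0 RPKM in 2-week replicates 1 to 4 and 6.74, 13.3, 12.4 and 19.0 RPKM in 3-week replicates 1 to 4. CXCL9, a chemokine that attracts T cells, was higher in every oncogene-expressing liver than in any control, with a log2 change of 2.34 ± 0.26 SE and an adjusted p of 0.0014 in limma. CXCL10, a related chemokine, rose by 1.64 ± 0.31 SE on the log2 scale, with 15.2 RPKM in 2-week replicate 3 and 2.77 to 5.95 RPKM in the other oncogene-expressing livers. The immunity-related GTPases IGTP (log2 change 1.12 ± 0.16 SE) and IRGM1 (0.59 ± 0.10 SE) rose, as did the nucleic acid sensor ZBP1 (0.93 ± 0.18 SE). CXCL9 and IGTP were called under all 19 alternatives. CXCL10 and ZBP1 were not called without any 1 control, nor IRGM1 without control replicate 1 or 2 (highest adjusted p 0.0865, 0.0870 and 0.0810). With median centring these 3 genes were not called either (0.0550, 0.0908 and 0.121), nor was ZBP1 without vector control replicate 2 and 2-week replicates 1 and 2 together (0.0793). CXCL10, ZBP1 and IRGM1 were called in 14, 13 and 16 of 19 alternatives. Without control replicate 1, 2 or 3, the list had 2, 3 or 4 of 39 tested genes called over both times. With median centring it had 2 of 38, with the replicate number as a block 4 of 38, and without the filter on low values 8 of 44. At 2 weeks 3 of 38 were called as higher, where 0.278% of all genes were. The count was 1 without any 1 control, without 2-week replicate 2 or without the filter. At 3 weeks 16 of 38 were called as higher, where 8.11% of all genes were. That count was 5, 7 or 5 without control replicate 1, 2 or 3, and 9 or 6 without 3-week replicate 2 or 4. With median centring it was 2, and without the filter 10 of 44.

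The listed interferon genes, which hold only IFNA4 of the interferon alpha genes, were at or near the floor. IFNB1, IFNA4, IFNL2 and IFNL3 were listed at 0 in all 11 livers. IFNG was listed at 0 in 8 of 11 livers and reached 0.09 RPKM in 2-week replicate 4, 0.079 RPKM in 3-week replicate 1 and 0.087 RPKM in 3-week replicate 4. Of the 7 tested genes among interferons, their receptors and kinases, limma called 0 over both times, and at an unadjusted p under 0.05 3 were higher and 1 was lower. JAK1, a kinase of the interferon receptors, had the highest mean level of the list and a log2 change of -0.065 ± 0.10 SE.

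Among 14 tested regulators of MHC genes, 2 were called as higher and 0 as lower over both times, beside 3.96% of all genes called as higher. NFKB1, a subunit of NF-κB, was among these, with a log2 change of 0.52 ± 0.13 SE in limma. IRF1, which binds interferon response elements, is an inducer of class I genes, and it was named for that role after its values had been seen. IRF1 was 5.66, 6.69 and 6.87 RPKM in vector control replicates 1 to 3, 10.8, 12.3, 15.0 and 9.23 RPKM in 2-week replicates 1 to 4 and 12.1, 7.99, 5.26 and 10.2 RPKM in 3-week replicates 1 to 4. IRF1 was above all controls in each 2-week liver, but 3-week replicate 3 was the lowest of all 11 livers, and its log2 change over both times, 0.61 ± 0.21 SE, did not pass (adjusted p = 0.113). With median centring the log2 change of NFKB1 was 0.32, and it was not called there or without the filter on low values (adjusted p = 0.171 and 0.0753). It was called in 8 of 19 alternatives. NFKB1 was also not called without any 1 control (adjusted p = 0.112, 0.103 and 0.209), 2-week replicate 4 (0.0719) or any 1 of the 3-week livers (0.0694, 0.0685, 0.0526 and 0.0805).

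Most tested genes for MHC class II, which presents peptides from outside the cell, were called as higher over both times, but fewer without any 1 control or with median centring. Over both times, 7 of 9 tested genes of this list of 13 were called as higher, where 3.96% of all genes were. In 7 of 9 all oncogene-expressing livers lay above all controls, beside 6.87% of all genes. Their median log2 change was 1.14. CD74 was 37.3, 41.5 and 32.6 RPKM in vector control replicates 1 to 3, 74.2, 119, 91.6 and 61.9 RPKM in 2-week replicates 1 to 4 and 89.2, 103, 103 and 103 RPKM in 3-week replicates 1 to 4. CD74, the invariant chain that guides class II molecules, rose by 1.30 ± 0.16 SE on the log2 scale, with an adjusted p of 0.0024 in limma. H2-AB1 was 17.3, 15.2 and 15.0 RPKM in vector control replicates 1 to 3, 34.8, 58.8, 41.5 and 23.6 RPKM in 2-week replicates 1 to 4 and 34.0, 46.4, 46.6 and 46.2 RPKM in 3-week replicates 1 to 4. Vector controls lay below all other livers for CD74 and for H2-AB1, the β chain of a class II molecule. The chains H2-AB1 (log2 change 1.32 ± 0.21 SE), H2-AA (1.41 ± 0.24 SE) and H2-EB1 (1.86 ± 0.24 SE) rose, and so did the peptide loading genes H2-DMB1 (1.14 ± 0.14 SE) and H2-DMA (0.82 ± 0.15 SE). H2-EB1 was lowest in vector control replicate 2, at 4.49 RPKM against 9.1 and 7.5 RPKM in replicates 1 and 3. Its log2 change ranged from 1.44 to 2.06 over the 19 alternatives. At 2 weeks 3 of 9 were called as higher, where 0.278% of all genes were, with 1, 0 or 0 without control replicate 1, 2 or 3, 5 without 2-week replicate 4, 1 with median centring and 0 of 13 without the filter on low values. At 3 weeks 6 of 9 were called as higher, where 8.11% of all genes were, and 3 with median centring. CD74, H2-EB1 and H2-DMB1 were called over both times under all 19 alternatives, while H2-AB1, H2-AA and H2-DMA were not called without any 1 control (highest adjusted p 0.0583, 0.0805 and 0.0889), and H2-AA and H2-DMA also not with median centring (0.0595 and 0.0908). The difference between class I and class II genes was not tested. When any 1 control was left out (replicate 1, 2 or 3), 3 of 9 were called over both times, and with median centring 4 of 9, while the median log2 change of the list stayed at 0.94 or above in these settings. CIITA, the activator of class II genes, was under the filter on low values and was not tested. It was 0.024 to 0.072 RPKM in the controls and 0.19 to 0.408 RPKM in the oncogene-expressing livers, or about 5.1 to 13.5 and 33.5 to 85.2 reads. It is named after its values had been seen.

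**Figure D3:**
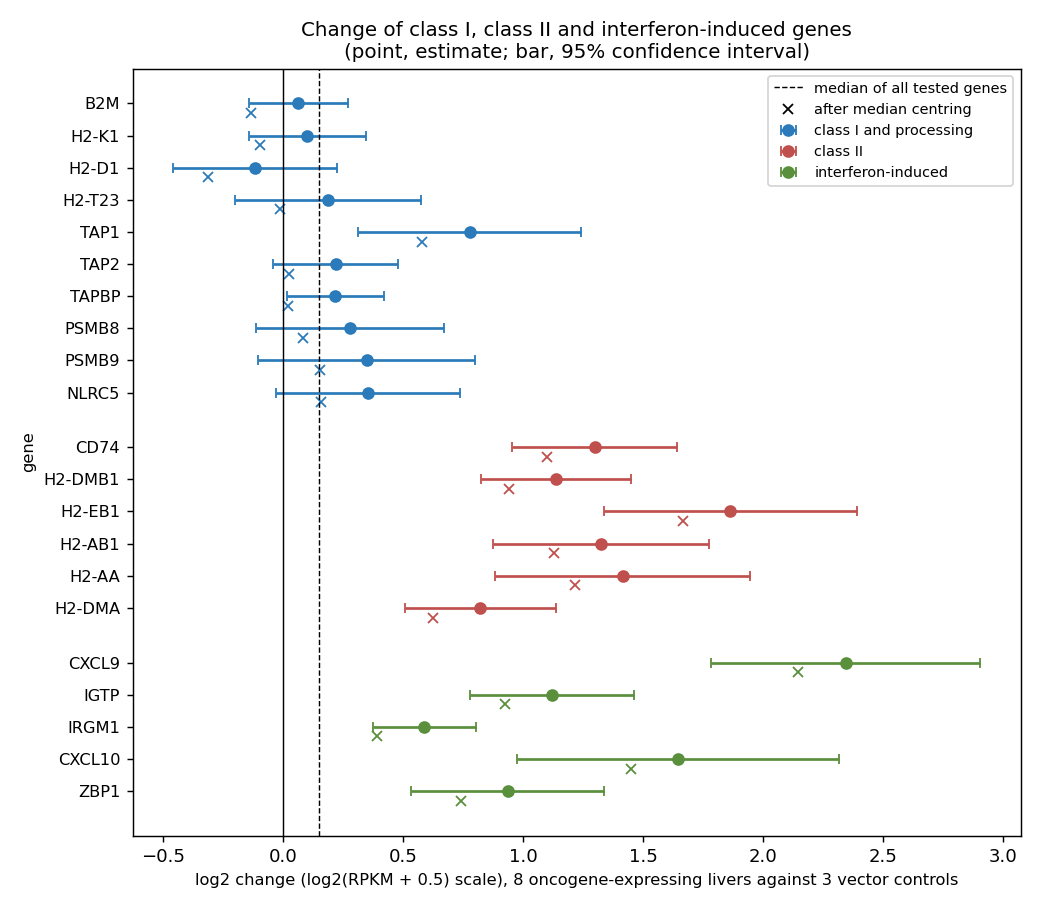
Log2 change of 10 class I and processing genes, 6 class II genes and 5 interferon-induced genes in 8 oncogene-expressing against 3 vector control livers, with 95% confidence intervals from limma (points and bars), the change after median centring (crosses) and the median of all tested genes (dashed line, 0.15). The class II and interferon-induced genes shown are among those with the lowest adjusted p. TAP1, at 0.78, is the highest of the class I genes, and B2M, H2-K1 and H2-T23 change sign with centring.

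In whole liver, more class II RNA per cell and more cells that carry it cannot be told apart, nor can fewer cells and less RNA per cell. Class II is mainly a product of leukocytes, and markers of these cells were measured in the same livers. The 6 pan-leukocyte genes, led by CD52, summed to 14.0, 10.3 and 11.9 RPKM in vector control replicates 1 to 3 and to 15.5 to 33.1 RPKM (median 23.4) in the 8 oncogene-expressing livers, with no overlap. LAPTM5 and CD52 were called as higher (2 of 6), with log2 changes of 0.59 ± 0.13 SE and 1.28 ± 0.32 SE, and 6 of 6 were higher at an unadjusted p under 0.05. LAPTM5 was not called without any 1 control (adjusted p = 0.0553, 0.114 and 0.163) or 3-week replicate 4 (0.0592), and it was called in 11 of 19 alternatives. CD52 was called in 6 of 19 alternatives, and not without any 1 control (0.0889, 0.148 and 0.186), 2-week replicate 3 or 4 (0.0557 and 0.0592) or 3-week replicate 1, 2 or 4 (0.0663, 0.0625 and 0.0699). The 17 T and NK cell genes, led by CCL5, summed to 4.44, 5.37 and 4.38 RPKM in vector control replicates 1 to 3 and to 5.59 to 13.5 RPKM (median 9.75) in the 8 oncogene-expressing livers, also with no overlap. Of 7 tested, limma called 0, and 3 were higher at an unadjusted p under 0.05. CD3E, a chain of the T cell receptor complex, was at 0.071 to 0.126 RPKM in the controls and 0.039 to 0.631 RPKM in the oncogene-expressing livers. CD8A, which marks the T cells that read class I, was at 0.019 to 0.065 and 0.118 to 0.325 RPKM, with no overlap. These values are about 1.2 to 4.6 and 11.6 to 20.9 reads. CD8B1, another gene of this list, was at 0.032 to 0.083 and 0.037 to 0.445 RPKM, and its groups overlapped. CD3E, CD8A and CD8B1 were under the filter on low values and not tested, and they are named after their values had been seen. The 6 B cell genes, led by CD79B, summed to 0.471, 0.652 and 0.382 RPKM in vector control replicates 1 to 3 and to 0.994 to 3.09 RPKM (median 1.72) in the 8 oncogene-expressing livers. CD79B was the only gene tested, and its call (log2 change 0.83 ± 0.21 SE) held in 3 of 18 alternatives. It was lost without any 1 control (adjusted p = 0.153, 0.0870 and 0.219), 2-week replicate 1, 2 or 4 (0.0580, 0.0688 and 0.0832) or 3-week replicate 1, 3 or 4 (0.0724, 0.0636 and 0.0813). The remaining losses of LAPTM5, CD52 and CD79B came under alternatives other than leaving out 1 mouse. The 13 macrophage and Kupffer cell genes, led by LYZ2, summed to 236, 260.0 and 249 RPKM in vector control replicates 1 to 3 and to 235 to 364 RPKM (median 302) in the 8 oncogene-expressing livers, with 0 of 13 called, and 3 higher and 1 lower at an unadjusted p under 0.05. The 9 dendritic cell genes, led by BATF3, summed to 1.89, 1.84 and 2.03 RPKM in vector control replicates 1 to 3 and to 2.13 to 4.31 RPKM (median 2.75) in the 8 oncogene-expressing livers, with 0 of 3 called and 1 higher at an unadjusted p under 0.05. What part these cells had in the values of class II, interferon-induced or class I genes was not tested.

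Of the lists of other liver cells, only that of stellate cells had calls over both times. Of 9 hepatocyte genes limma called 0, with 1 lower at an unadjusted p under 0.05 and a median log2 change of -0.22. At 3 weeks limma again called 0, with 3 lower at an unadjusted p under 0.05, and the list summed to 58410 to 65321 RPKM, below the 73442 to 82930 RPKM of the controls, while the 2-week livers overlapped with these. The 9 sinusoidal endothelial genes, led by CLEC4G, summed to 117, 124 and 124 RPKM in vector control replicates 1 to 3 and to 91.0 to 125 RPKM (median 111) in the 8 oncogene-expressing livers, with 0 of 9 called and 1 lower at an unadjusted p under 0.05. Of the neutrophil genes, led by S100A9, 0 of 2 were called, and of the cholangiocyte genes, led by SPP1, 0 of 3. Of 8 stellate cell genes, led by DCN, 2 were called, PDGFRB (log2 change 0.76 ± 0.12 SE) and COL1A1 (0.87 ± 0.15 SE), while the list summed to 84.6, 80.5 and 92.5 RPKM in vector control replicates 1 to 3 and to 55.9 to 89.7 RPKM (median 80.6) in the 8 oncogene-expressing livers. PDGFRB was not called without control replicate 1 or 3 (adjusted p = 0.0745 and 0.0721), nor COL1A1 without control replicate 1 or 2 (0.0810 and 0.0657).

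The other class I heavy chains gave no call over both times. Of 27 listed genes, 9 were listed at 0 in all 11 livers (H2-L, H2-M1, H2-M9, H2-M10.1, H2-Q6, H2-Q7, H2-Q8, H2-Q9 and H2-T9). Of the 27, 12 were tested and 0 were called, beside 4.18% of all genes. At an unadjusted p under 0.05, 3 of 12 were higher, beside 23.8% of all genes in either direction. H2-Q10, a secreted class I chain made by the liver, had the highest level of the list and exceeded H2-K1 in every liver. H2-Q10 was 1537, 1225 and 1541 RPKM in vector control replicates 1 to 3, 1533, 1592, 1265 and 1359.7 RPKM in 2-week replicates 1 to 4 and 1385, 1242, 1466 and 1505 RPKM in 3-week replicates 1 to 4. Its groups overlapped, and its log2 change was -0.013 ± 0.11 SE (95% confidence interval -0.25 to 0.22). CD1D1, which presents lipids to NKT cells, had 83.7 to 109 RPKM and a log2 change of -0.14 ± 0.071 SE (95% confidence interval -0.30 to 0.010). H2-Q1 was called at 3 weeks (log2 change 2.24 ± 0.61 SE), the 1 call among 12, beside 8.11% of all genes called as higher. It is named after its values had been seen. H2-Q1 was 0.268, 2.82 and 0.405 RPKM in vector control replicates 1 to 3, 0.419, 1.37, 5.29 and 2.70 RPKM in 2-week replicates 1 to 4 and 2.80, 8.64, 6.80 and 6.41 RPKM in 3-week replicates 1 to 4. Vector control replicate 2 was level with 3-week replicate 1 for H2-Q1, and the other controls and 2-week replicate 1 were low, so the groups overlapped. The list had 0 calls at 3 weeks without the filter on low values, with median centring, and without control replicate 3, 2-week replicate 2 or any 1 of the 3-week livers, and it had 2 without 2-week replicate 3.

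Genes around the members in the pathway were tested in the same way, and their counts are given beside the shares of all genes. Of 14 genes for loading and trimming, TAPBPL, which encodes the tapasin-related editor TAPBPR, rose over both times. TAPBPL was 11.4, 13.1 and 12.5 RPKM in vector control replicates 1 to 3, 15.0, 18.4, 14.3 and 17.4 RPKM in 2-week replicates 1 to 4 and 16.8, 15.7, 16.8 and 19.1 RPKM in 3-week replicates 1 to 4. All oncogene-expressing livers were above all controls for TAPBPL, with a log2 change of 0.42 ± 0.10 SE and an adjusted p of 0.0391 in limma, and with median centring the value was 0.22 and was not called. It was also not called without any 1 control (adjusted p = 0.181, 0.0836 and 0.141), 2-week replicate 4 (0.0642) or 3-week replicate 1 or 4 (0.0607 and 0.0695), and it was called in 9 of 19 alternatives. Over both times 1 of the 14 was called, beside 3.96% of all genes called as higher. At an unadjusted p under 0.05, 4 were higher, beside 23.8% of all genes in either direction. Without 2-week replicate 1, or without 2-week replicates 1 and 2, 3 or 4 were called. At 3 weeks 2 were called, TAPBPL and SEC61A1 (log2 change 0.40 ± 0.11 SE), beside 8.11% of all genes called as higher. SEC61A1, a channel subunit, was named after its values had been seen. At an unadjusted p under 0.05, 5 were higher (31.1% of all genes in either direction). In 5 all livers lay above all controls (31.4% of all genes). That count of calls was 0, 1 or 0 without control replicate 1, 2 or 3, 1 without 2-week replicate 4, 0, 1, 1 or 0 without 3-week replicate 1, 2, 3 or 4, 0 with median centring and 1 without the filter on low values. Of 19 proteasome genes beside the members, limma called 0 over both times (4.18% of all genes). At an unadjusted p under 0.05, 0 passed (23.8% of all genes). POMP, which helps assemble the proteasome, had the highest mean RPKM of these and a log2 change of 0.022 ± 0.11 SE, and PSMB4, a structural subunit, had 0.065 ± 0.090 SE.

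The genes whose pattern was most like that of the members were found over the 11 livers by Pearson's r with the mean of the 10 standardised members. That mean was highest in 2-week replicates 1 and 2 (0.96 and 0.86 SD) and lowest in vector control replicate 2 (-1.02) and 3-week replicate 3 (-0.81). APOL9A (r = 0.94), CELA1 (0.93), SIVA1 (0.92), ZFP707 (0.92), ZC3HC1 (0.91) and WDR81 (0.90) came closest among the other tested genes. After the group means were taken out, the closest genes were POLL (r = 0.97), 5033403H07RIK (0.97), TMEM160 (0.96), CBS (0.96), SIVA1 (0.96) and 5033406O09RIK (0.95). These are descriptions over livers that share groups and series.

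In the GENCODE annotation of GRCm38, the assembly of mm10, 8 of 10 members lie in the MHC region of chromosome 17. PSMB9 (chr17:34181987-34187764, minus strand), TAP1 (chr17:34187553-34197225, plus strand), PSMB8 (chr17:34197721-34201454, plus strand) and TAP2 (chr17:34203527-34216321, plus strand) are neighbours. H2-K1 (chr17:33996017-34000347, minus strand), TAPBP (chr17:33915899-33929292, plus strand), H2-D1 (chr17:35262730-35267499, plus strand) and H2-T23 (chr17:36029773-36032855, minus strand) flank them, while B2M (chr2:122147686-122153083, plus strand) and NLRC5 (chr8:94434356-94527272, plus strand) lie elsewhere.

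Promoters were searched because class I genes are known to share control elements near their start. RefSeq promoter windows on GRCm38.p6 were matched for 8 of 10 members, with TAP2 and NLRC5 named only. The 250 bases before the start were searched on both strands for CCAAT (the letters of the Y box) and TGACG (the core of the X2 box). CCAAT was found in 7 of 8 members, where 33.8% of 32851 promoters hold it, and TGACG in 5 of 8, where 17.8% do. The 5 with TGACG were B2M, H2-K1, H2-D1, TAP1 and PSMB9. Of 2 longer motifs of 10 letters, the core bound by interferon regulatory factors was found in 2 of 8 members, B2M and H2-T23 (2.98% of all promoters), and the NF-κB letters of the H2-K gene in 2 of 8, H2-D1 and H2-K1 (0.0852%). A match is a description of letters, not of a bound site, and the PSMB8 window held none of the 4. The windows of TAP1 and PSMB9 face away from each other and share 225 bases (chr17:34187331-34187555), so their CCAAT and TGACG matches are the same bases. TAP1 and PSMB9 both had their lowest 3-week value in replicate 3, yet TAP1 was called at 3 weeks and PSMB9 was not (log2 change 0.30 ± 0.23 SE), and the difference between them was not tested. The sequences here show the promoter shared by TAP1 and PSMB9 and those of H2-K1, H2-D1 and B2M, the chains of classical class I molecules, 5′ to 3′ on the strand of the gene, with CCAAT and TGACG in capitals on either strand (ATTGG is CCAAT on the other strand).
TAP1, chr17:34187306-34187555, plus strand: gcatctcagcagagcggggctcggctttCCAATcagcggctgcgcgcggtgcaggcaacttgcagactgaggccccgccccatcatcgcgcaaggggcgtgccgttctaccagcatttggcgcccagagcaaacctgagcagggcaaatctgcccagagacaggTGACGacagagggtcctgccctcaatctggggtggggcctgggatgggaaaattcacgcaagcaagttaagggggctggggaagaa
H2-K1, chr17:34000334-34000583, minus strand: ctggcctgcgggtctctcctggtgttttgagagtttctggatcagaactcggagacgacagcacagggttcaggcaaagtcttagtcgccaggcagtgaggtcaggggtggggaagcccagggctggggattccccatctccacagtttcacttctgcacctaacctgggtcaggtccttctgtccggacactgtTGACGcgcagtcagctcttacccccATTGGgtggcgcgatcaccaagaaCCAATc
H2-D1, chr17:35262844-35263093, plus strand: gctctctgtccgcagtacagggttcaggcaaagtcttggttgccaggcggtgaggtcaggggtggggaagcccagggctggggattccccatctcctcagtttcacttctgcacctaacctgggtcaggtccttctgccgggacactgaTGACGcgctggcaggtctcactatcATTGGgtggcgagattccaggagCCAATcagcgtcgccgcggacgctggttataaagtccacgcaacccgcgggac
B2M, chr2:122147437-122147686, plus strand: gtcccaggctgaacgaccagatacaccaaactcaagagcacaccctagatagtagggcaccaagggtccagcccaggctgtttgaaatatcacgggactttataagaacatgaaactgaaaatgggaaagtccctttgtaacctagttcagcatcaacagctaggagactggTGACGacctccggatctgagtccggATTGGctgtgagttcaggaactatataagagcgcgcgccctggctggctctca

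Short reads can fail to tell class I genes apart, so the transcripts of GENCODE were compared in words of 50 bases on both strands. The study's methods name single reads of this length but also a paired-end module, so the read length is uncertain. B2M shared 0 of 811 words with other genes. The heavy chains shared more, with 9.63% of the words of H2-K1 (most with H2-Q10), 12.8% of H2-D1 (most with H2-Q1) and 14.5% of H2-T23. TAP1 shared 3.33% of its words and PSMB9 4.19%, 163 of them with each other, while NLRC5 shared 0.338%. TAPBP shared 23.2% (most with Gm19412), PSMB8 11.9% (most with Gm20496) and TAP2 11.6% (most with Gm15821). H2-T10 and H2-T22, which went in opposite directions in vector control replicate 2, shared 50.4% and 53.5% of their words, 1124 of them with each other. How reads with more than 1 matching gene were counted is not given in the sources used here, so the levels of the heavy chains, and above all of H2-T10, H2-T22 and the H2-Q genes, are uncertain to that extent.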

How the data were processed

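RNA from 11 whole mouse livers was sequenced. The study's methods name 50-base single reads but also a paired-end sequencing module, so the read length and type are uncertain. Per the study's methods, reads were aligned to mm10 with HISAT2, counted with featureCounts and tested with DEseq, and versions are not given in the sources used here. The methods name a poly(A) mRNA kit and the labels an rRNA depletion kit for total RNA, so the library type is uncertain. The deposited values are RPKM, made by the authors from their read counts. They are not counts, so limma 3.58.1 in R 4.3.3 was used in place of the count test first planned after the study's methods. The fit took log2(RPKM + 0.5), with a trend in the prior variance, all 3 groups in 1 model, only genes whose mean RPKM reached 0.5, and Benjamini-Hochberg adjustment over all tested genes. Of 23420 gene names, 27 made of digits only were dropped. The steps between low values gave the read totals. Scripts were tested on simulated data. Sequences came from RefSeq (GRCm38.p6) and GENCODE (GRCm38), read with Python 3.11.15.

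The members and the lists were chosen with earlier results of these data known. The lists were class I chains, transport and loading, immunoproteasome and transactivator among the members, other class I heavy chains, loading and trimming genes, proteasome partners, MHC regulators, MHC class II, interferon-induced genes, interferons and receptors, and markers of 10 cell types. Of 243 listed genes 242 were in the table. Genes were named if they were members, the called genes of a list over both times (up to 6, by adjusted p), the 2 of highest mean RPKM where none was called, or the 6 most like the members. Alternatives were pseudocounts of 0.1 and 1, no filter, a mean RPKM of at least 2, median centring, the replicate number as a block, each mouse left out in turn, and 2-week replicates 1 and 2 left out. Leaving out vector control replicate 2 together with 2-week replicates 1 and 2 was chosen after seeing the data. The p-values measure the spread between mice.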

Additional observations from a re-analysis of the deposited data

Results flagged for a closer look

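In groups of 4 livers, the highest or lowest value was compared with its gap to the nearest other liver, and a value was named where that gap took an unusually large part of the group's range by Dixon's criterion. Among 124 groups of 62 genes, 6 values met it, where chance gives about 1 in 20 groups, or 6.2. In 3-week replicate 1, CD74 (89.2 RPKM), H2-AB1 (34.0 RPKM) and H2-AA (41.2 RPKM) were each below the 3 other 3-week livers. In 3-week replicate 3, SIVA1 (1.67 RPKM) and WDR81 (4.05 RPKM) stood apart from the others of that group. CXCL10 was 15.2 RPKM in 2-week replicate 3, above the 3 other 2-week livers. No member was among these values, and the causes were not tested.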

How the results depend on the processing

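The counts of all called genes were 467 over both times, 32 at 2 weeks, 946 at 3 weeks and 0 from 2 to 3 weeks. Pseudocounts of 0.1 and 1 and a mean RPKM of at least 2 turned no direction and moved no such count by over 1.5 times. The causes of the changes given here were not tested, other than that fewer livers or more genes enter the test by construction. Without the filter on low values, 264 genes were called over both times, 10 genes were called at 2 weeks and 0 members were called at 3 weeks. With median centring, 95 genes were called over both times, 49 higher and 46 lower (442 and 25 without it). At 3 weeks 0 members and 121 genes were called with it, 54 of these genes higher and 67 lower (906 and 40 without it). The log2 changes that turned were over both times B2M -0.13, H2-K1 -0.10, H2-T23 -0.012, POMP -0.17, PSMB4 -0.13, WDR81 -0.0030, POLL -0.079, TMEM160 -0.024, CBS -0.020, at 3 weeks H2-K1 -0.23, H2-T23 -0.10, TAPBP -0.048, PSMB8 -0.11 and from 2 to 3 weeks TAPBP -0.14. With the replicate number as a block, 93 genes were called over both times, 0 members were called at 3 weeks and 350 genes were called at 3 weeks. The log2 changes that turned were at 2 weeks H2-D1 0.041 and at 3 weeks B2M 0.027. Of 38 interferon-induced genes, 4 were called as higher over both times (13 without the block), 1 at 2 weeks (3 without it) and 8 at 3 weeks (16 without it). Of 14 loading and trimming genes, 0 were called over both times (1 without it) and 0 at 3 weeks (2 without it). The 1 member whose call at 3 weeks ended was TAP1. The labels do not say what livers with the same number share. Of 10 pairs of such livers, 2 had a correlation of deviations over 0.1 (range 0.0086 to 0.28), and not every liver correlated best with its own number, so the mice were not treated as pairs. Without 2-week replicates 1 and 2, 1513 genes were called over both times, 221 genes were called at 2 weeks and 1782 genes were called at 3 weeks. The log2 changes that turned were over both times B2M -0.013, POMP -0.074, PSMB4 -0.018, JAK1 0.025, POLL -0.025, TMEM160 -0.039, at 2 weeks B2M -0.020 and from 2 to 3 weeks B2M 0.015, H2-K1 0.020, H2-D1 0.032, H2-T23 0.15, PSMB8 0.068, PSMB9 0.24. Without vector control replicate 2 and 2-week replicates 1 and 2 (chosen after seeing the data), 0 members were called at 3 weeks. The log2 changes that turned were over both times B2M -0.045, H2-K1 -0.10, H2-D1 0.0096, H2-T23 -0.20, POMP -0.023, JAK1 0.025, POLL -0.074, TMEM160 -0.12, CBS -0.011, 5033406O09RIK -0.13, at 2 weeks B2M -0.052, H2-K1 -0.11, H2-T23 -0.28, PSMB8 -0.0022, at 3 weeks H2-K1 -0.088, H2-D1 0.026, H2-T23 -0.13 and from 2 to 3 weeks B2M 0.015, H2-K1 0.020, H2-D1 0.032, H2-T23 0.15, PSMB8 0.068, PSMB9 0.24. With each mouse left out in turn, the counts called ranged from 0 to 1 members over both times, 32 to 637 genes over both times, 7 to 60 genes at 2 weeks, 0 to 1 members at 3 weeks, 118 to 1098 genes at 3 weeks and 0 to 1 genes from 2 to 3 weeks. Log2 changes that turned ranged over both times for H2-K1 -0.030 to 0.21, H2-D1 -0.24 to 0.11, H2-T23 -0.11 to 0.35, H2-Q10 -0.12 to 0.043, POMP -0.018 to 0.073, S100A8 -0.50 to 0.20, KRT19 -1.30 to 0.10, at 2 weeks for H2-D1 -0.17 to 0.18, H2-T23 -0.091 to 0.37, at 3 weeks for B2M -0.038 to 0.031, H2-K1 -0.088 to 0.15, H2-D1 -0.32 to 0.026, H2-T23 -0.13 to 0.33 and from 2 to 3 weeks for H2-T23 -0.12 to 0.034, TAPBP -0.035 to 0.071, PSMB9 -0.21 to 0.12, NLRC5 -0.15 to 0.095. Depth limits the low genes, such as CIITA and the interferons.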
